A study of Mus musculus with 9 samples.

Results

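The genes described here encode MAX and the proteins that share it, or its relative MLX, with MYC in cultured mouse lung neuroendocrine cells. All probe sets carrying 1 of 10 gene symbols in the array's annotation were taken: Max, Mxd1, Mxd3, Mxd4, Mxi1 (which encodes MXI1, also called MXD2), Mnt, Mga, Mlx, Mlxip (MondoA) and Mlxipl (ChREBP). This gave 24 probe sets of 45037 and 10 genes of 18193. RNA was measured on 9 Affymetrix mouse arrays, in 4 groups. The starting cells, called preSC, are preneoplastic neuroendocrine cells from lungs of mice with conditional Rb, p53 and p130 alleles, infected with Adeno-Cre virus, on a mixed C57BL/6 and 129/Sv background (3 arrays). The remaining arrays hold preSC after transduction with a retrovirus encoding L-Myc (2 arrays), C-Myc (2 arrays) or N-Myc (2 arrays), and every group has the same genotype. No array of cells with an empty retrovirus was analysed here, and the labels do not say whether the cells are 1 line or several, what drives the transgenes, or how old the mice were. The series calls its replicates biological without naming cultures or animals, so p-values measure the spread between these arrays, which may be technical.

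MYC proteins bind DNA as heterodimers with MAX, a small protein with a helix-loop-helix and leucine zipper, at the E-box CACGTG. The MXD proteins, MNT and MGA also bind MAX. MXD proteins and MNT recruit the SIN3 corepressor to E-boxes, and MGA joins MAX to the noncanonical Polycomb complex PRC1.6. MLX is a second hub, which pairs with MondoA and ChREBP to switch on glucose-responsive genes and can also pair with MXD1, MXD4 and MNT. In lung neuroendocrine tumours a MYC family gene is often amplified, and MAX and MGA are among the genes lost in some of them.

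The E-box in the promoters of these genes is shown first, since a protein of the network could meet it there. RefSeq (assembly GRCm38.p6) gives 13 promoter windows for the 10 genes, each running from 250 bases before to 50 bases after a transcription start. CACGTG, which reads the same on both strands, was found in 5 windows of 5 genes, against 7.15% of 32851 mouse windows of the same length. A match is a run of letters and no measured binding site. Each line gives 30 bases, 5′ to 3′ on the gene's strand, with the motif in capitals.
Max: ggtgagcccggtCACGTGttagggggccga
Mxd4: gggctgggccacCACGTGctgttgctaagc
Mnt: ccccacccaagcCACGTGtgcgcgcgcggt
Mlx: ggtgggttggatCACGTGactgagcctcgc
Mlxipl: gcggctgccatcCACGTGctaaggagagaa
The Max window lies at chr12:76962234-76962263 (minus strand), and its motif begins 3 bases before the start (position -3, the start base being 0). The Mlx window lies at chr11:101087238-101087267 (plus strand), motif at -40. The Mlxipl window lies at chr5:135089780-135089809 (plus strand), motif at -98. The Mnt window lies at chr11:74830789-74830818 (plus strand), motif at -123. The Mxd4 window lies at chr5:34187912-34187941 (minus strand), motif at -219. The related sequence CACGCG, searched on both strands, was found in 1 of the 13 windows and in 9.27% of all windows. It lies in Mga, on the other strand (capitals CGCGTG), at chr2:119897195-119897224 (plus strand), motif at -21.
Mga: agctggtaggagCGCGTGcgcagtgacgtg
Mxi1, which holds no CACGTG in these windows, has 3 listed starts, and the first 2 lie 18907 bases apart on chromosome 19. The 100 bases before each of these are shown because 2 probe sets of Mxi1 gave different results. They lie at chr19:53310406-53310505 and chr19:53329313-53329412 (plus strand, no capitals).
Mxi1 first start: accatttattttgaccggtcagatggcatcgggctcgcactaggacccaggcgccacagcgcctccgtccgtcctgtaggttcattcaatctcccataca
Mxi1 second start: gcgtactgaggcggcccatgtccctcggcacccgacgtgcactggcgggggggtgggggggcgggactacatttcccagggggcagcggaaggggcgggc
The data hold no probe positions, so which transcripts each probe set reads was not analysed here.

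Several arrays stood apart. Only 29 probe sets differed by over 2-fold between preSC 1 and preSC 2, and 13 between the N-Myc-labelled arrays, against 1907 between preSC 1 and preSC 3, 2249 between the L-Myc arrays and 3032 between the C-Myc arrays. Across groups, L-Myc 2 and C-Myc 2 differed at 41 probe sets, fewer than either differed from its own group. C-Myc 1 differed from N-Myc 1 and N-Myc 2 at 193 and 182 probe sets. Each C-Myc array was thus closer to arrays of another group than to the other C-Myc array, which bears on every C-Myc mean below. Dcn, a stromal proteoglycan named here after its values were seen, was at 9.32, 10.32 and 9.69 on preSC 3, L-Myc 2 and C-Myc 2 and between 5.29 and 6.86 on the other 6 arrays (log2 intensity, as all levels here). Of the member probe sets, 6 were higher on all of preSC 3, L-Myc 2 and C-Myc 2 than on the rest of their groups (25%, against 16.1% of all probe sets) and 2 were lower (8.3%, against 15.7%). The higher ones were both Mlx probe sets, the Mlxipl probe set and 3 of 4 Mxd4 probe sets. The preSC arrays also differed from the 6 transduced arrays in the control probes for 18S rRNA (12.88 to 13.91 against 8.22 to 9.35) and in the Actb 5′ minus 3′ signal (-0.85 to -0.62 against -0.31 to -0.20). Each gave an exact two-sided permutation p of 0.0119, the smallest that the 84 splits allow (0.0119 after Benjamini-Hochberg adjustment over both). The control-probe differences follow the groups, so their part in a difference from preSC cannot be told apart from that of the transgene. The same holds in the C-Myc and N-Myc comparisons for the RNA type given in the labels. They name polyA RNA for preSC and L-Myc and total RNA for C-Myc and N-Myc. The extraction protocols name total RNA for every group, so whether the RNA type differed is uncertain. All 9 neuroendocrine markers measured were above the 40th percentile of each array, which lay between 5.284 and 5.344. They also changed with the groups: 2 rose and 3 fell with L-Myc, 2 and 4 with C-Myc, and 2 and 5 on the N-Myc-labelled arrays, which is 55.6%, 66.7% and 77.8% of them beside 11.9%, 18.2% and 22.4% of all genes read on their brightest probe set. Their median differences from preSC were -0.62, -1.32 and -1.36 (log2). Their mean level was 10.72 to 11.01 in preSC, 10.45 to 10.60 with L-Myc, 9.87 to 10.37 with C-Myc and 10.00 to 10.01 on the N-Myc-labelled arrays. Chga, a secretory granule protein, fell by 0.84, 1.32 and 1.36, whereas Uchl1, a neuronal deubiquitinase, rose by 1.16, 1.19 and 1.45. These 2 are examples and not the largest changes. From preSC to the N-Myc-labelled arrays, means fell further for Dll3 (9.62 to 7.16), Resp18 (11.86 to 9.46), Ncam1 (11.15 to 9.22) and Scg2 (11.89 to 10.23). The 4 other Ncam1 probe sets differed there by -1.74 to 0.29. The part of these marker changes in the members' differences from preSC was not tested. Of 6 stromal, 4 endothelial and 5 leukocyte markers, 4, 3 and 3 were at or under that level on every array. Their mean levels were 4.87 to 5.58, 4.61 to 4.92 and 4.74 to 4.98. In each of the L-Myc, C-Myc and N-Myc-labelled comparisons, 1 of the 5 leukocyte markers rose (20%), beside 11.9%, 18.2% and 22.4% of all genes changed. No stromal or endothelial marker passed. Of 5 lung epithelial markers, whose mean level was 5.68 to 6.71, the surfactant gene Sftpc was at 10.59 to 11.10 on the N-Myc-labelled arrays, 10.68 on C-Myc 1 and 6.06 to 8.42 elsewhere.

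The transgenes were read first. On 1422087_at, Mycl was at 11.79 and 12.74 on the L-Myc arrays, at 5.39 to 5.74 on preSC and at 6.68 to 8.52 on the others. Myc (1424942_a_at) was at 11.22 and 10.68 on the C-Myc arrays but also at 11.96 and 11.40 on the N-Myc-labelled arrays, against 5.63 to 8.13 on the other 5. Mycn on 1425922_a_at was at 9.05 and 8.46 on the N-Myc-labelled arrays and at 5.79 to 6.39 elsewhere, whereas 1425923_at read Mycn at 11.07 to 13.54 in all 3 transduced groups and at 6.37 to 6.89 in preSC. Mycl on 1422088_at was at 4.66 to 4.75 in preSC and at 6.09 to 7.24 on the 6 transduced arrays. It rose by 2.28 with L-Myc, 1.91 with C-Myc and 1.72 on the N-Myc-labelled arrays (limma adjusted p 0.00255, 0.00414 and 0.0057). Not all probe sets of these genes followed. Another Mycn probe set, 1417155_at, was at 7.74 to 8.52 in preSC, 6.86 to 8.02 with L-Myc, 5.38 and 7.003 with C-Myc, and 5.62 and 5.47 on the N-Myc-labelled arrays, so it was lower with C-Myc (-2.06, adjusted p = 0.0288) and on the N-Myc-labelled arrays (-2.71, adjusted p = 0.00918). The brightest Mycl probe set by mean level, 1434777_at, was at 8.65 to 9.03 in preSC and at 8.56 and 8.78 with L-Myc (-0.23, adjusted p = 0.730). The arrays labelled N-Myc held high Myc beside a high Mycn reading on 2 of 3 probe sets, and results for them are given under that label.

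Between 2 and 5 of the 24 member probe sets changed against preSC. In the L-Myc comparison 2 changed, 1 up and 1 down, where 14.7% of all probe sets changed, 7.71% up and 6.99% down (limma, adjusted p under 0.05 over all probe sets, as for every call here). In the C-Myc comparison 3 changed, 1 up and 2 down, against a background of 19.6% (10.1% up and 9.55% down). In the N-Myc-labelled comparison 5 changed, 1 up and 4 down, against 23.4% (12% up and 11.4% down). These counts amount to 8.3%, 12.5% and 20.8% of the members. In such bulk samples, fewer cells with a transcript and less of it per cell cannot be told apart. A rise of 1 Mxi1 probe set and a fall of 1 Mga probe set were found in all 3 comparisons, which share the preSC arrays. The median difference from preSC over the 24 was 0.08, -0.05 and -0.12 for L-Myc, C-Myc and N-Myc-labelled arrays (log2), beside -0.01, 0.00 and 0.03 over all probe sets. Groups that did not overlap with preSC were common. This held for 10, 9 and 13 of the 24 member probe sets, beside 45.9%, 46.8% and 56.7% of all probe sets. Such separation, given below for single probe sets, is thus no sign of a change by itself. No filter on level was used, and 20 member probe sets were above the 40th percentile on all 9 arrays. With preSC 1 and 2 averaged and the N-Myc-labelled arrays averaged, the counts were 2, 2 and 0, the lone N-Myc-labelled value being assumed to vary like the other groups. Without C-Myc 2 they were 4, 6 and 7. Wherever 1 of a group's 2 arrays is left out, here and below, the array that remains is likewise assumed to vary like the other groups.

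**Figure D1:**
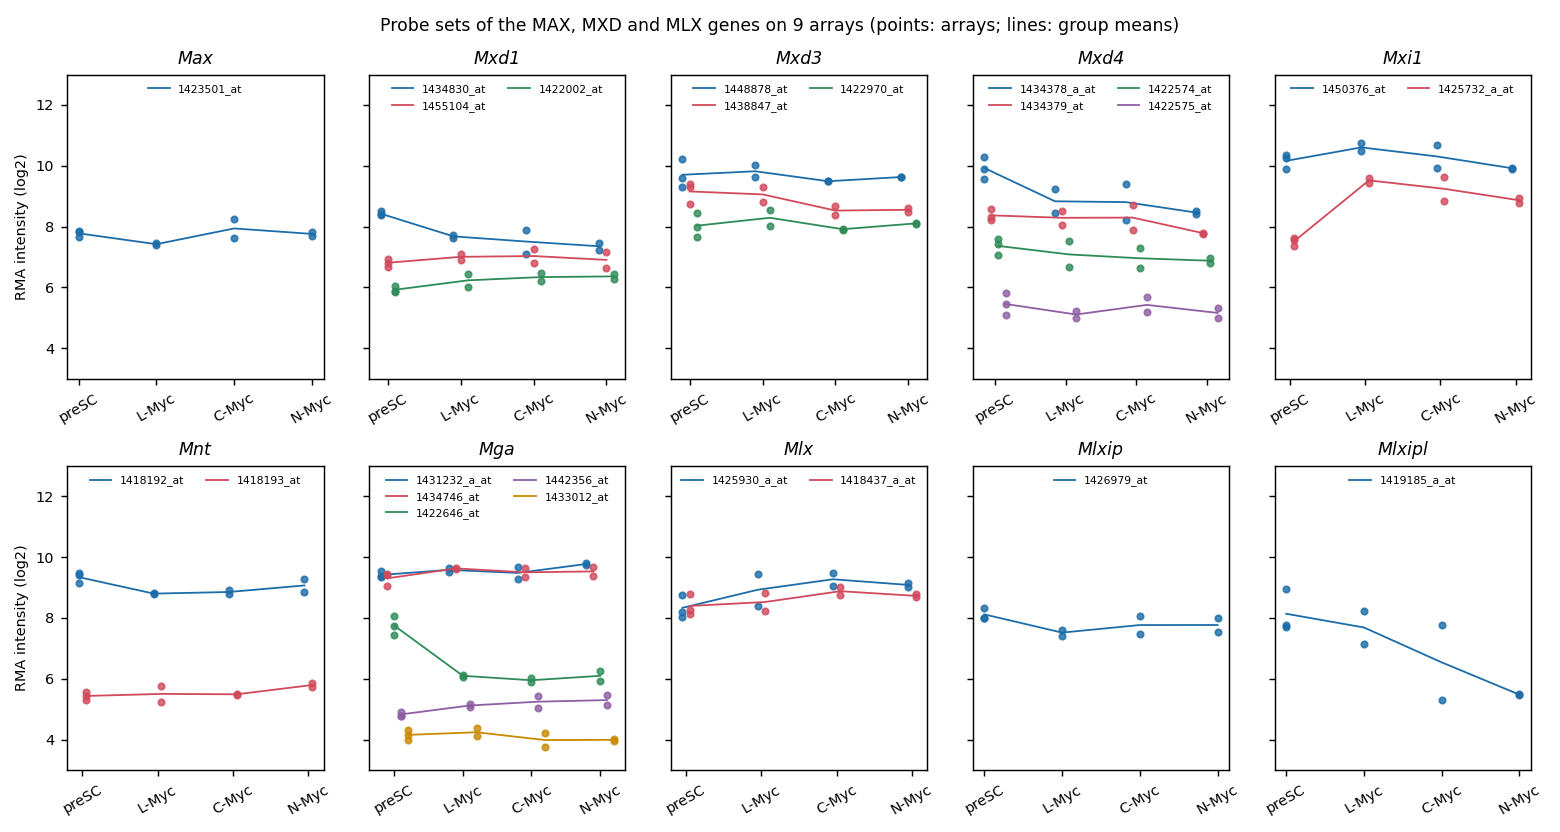
Level of each of the 24 probe sets (log2 RMA intensity, vertical axis) by group, with 1 panel a gene; points are arrays and lines join group means. Of the lines shown, 1 Mxi1 line climbs by 1.36 to 2.01 from preSC and 1 Mga line drops to 6.10, 5.95 and 6.09 from 7.75.

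Max, the shared partner, did not pass the test in any comparison with preSC. Its single probe set was at 7.84, 7.65 and 7.85 in preSC, 7.40 and 7.45 with L-Myc, 8.24 and 7.64 with C-Myc, and 7.82 and 7.69 on the N-Myc-labelled arrays. The L-Myc values lay just below all others and C-Myc 1 alone above 8. The differences from preSC were -0.36 (SE 0.18), 0.16 (SE 0.18) and -0.02 (SE 0.18), with adjusted p of 0.242, 0.593 and 0.955. On all arrays, L-Myc was 0.52 below C-Myc in mean (SE 0.20, limma unadjusted p = 0.0305, adjusted p = 0.938). Without C-Myc 2, L-Myc was 0.82 below C-Myc 1, a difference that rests on 1 C-Myc array.

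Of the 4 MXD-type repressors, Mxi1 gave the clearest change. MXI1 binds MAX and, through SIN3, represses genes that MYC activates. Its probe set 1425732_a_at was at 7.54, 7.62 and 7.36 in preSC, 9.60 and 9.44 with L-Myc, 8.85 and 9.63 with C-Myc, and 8.95 and 8.78 on the N-Myc-labelled arrays. Every transduced array exceeded every preSC array by more than 1 log2 unit. It rose 4.04-fold with L-Myc (log2 difference 2.01, SE 0.22, adjusted p = 0.0015), 3.33-fold with C-Myc (1.74, SE 0.22, adjusted p = 0.0021) and 2.56-fold on the N-Myc-labelled arrays (1.36, SE 0.22, adjusted p = 0.00499). The last call was lost without N-Myc 1 (adjusted p = 0.0518) and with close pairs averaged (adjusted p = 0.118).

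The other Mxi1 probe set did not follow. On 1450376_at Mxi1 was at 10.24, 10.34 and 9.91 in preSC, 10.74 and 10.47 with L-Myc, 9.92 and 10.69 with C-Myc, and 9.93 and 9.91 on the N-Myc-labelled arrays. The differences from preSC were 0.44 (SE 0.24), 0.15 (SE 0.24) and -0.24 (SE 0.24), with adjusted p of 0.272, 0.725 and 0.513. The groups overlapped apart from the L-Myc arrays, which lay above preSC. Within each array, 1425732_a_at minus 1450376_at was -2.72 to -2.55 in preSC and -1.14 to -0.98 in the 6 transduced arrays, and the ranges did not overlap. The rise was therefore seen by 1 of the 2 probe sets of Mxi1.

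Mxd1, a repressor that is switched on as many cell types differentiate, fell on its brightest probe set, 1434830_at. The values were 8.38, 8.50 and 8.41 in preSC, 7.63 and 7.73 with L-Myc, 7.11 and 7.90 with C-Myc, and 7.47 and 7.23 on the N-Myc-labelled arrays. All transduced arrays lay below all preSC arrays. The fall was 1.89-fold with C-Myc (-0.92, SE 0.22, adjusted p = 0.0225) and 2.11-fold on the N-Myc-labelled arrays (-1.07, SE 0.22, adjusted p = 0.0112). The L-Myc difference of -0.75 (SE 0.22) missed the threshold at an adjusted p of 0.0573 and passed it without either C-Myc array (0.00713). The C-Myc call was lost without preSC 1, preSC 2 or C-Myc 1 (adjusted p = 0.0595, 0.0727 and 0.0684), and the N-Myc-labelled call without either of its arrays (0.0553 and 0.0928). With close pairs averaged, neither passed (0.119 and 0.167).

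The dimmer Mxd1 probe sets pointed the other way without passing the test in the unweighted fit of all 4 groups. On 1455104_at the group means ran from 6.81 in preSC to 7.03 with C-Myc, with overlapping arrays. On 1422002_at they were 5.92, 6.23, 6.34 and 6.36, and the differences were 0.31, 0.42 and 0.44 (adjusted p 0.266, 0.120 and 0.0931). The N-Myc-labelled rise of 1422002_at passed with array weights (0.41, limma adjusted p 0.0407) and with only the 2 groups compared (0.44, adjusted p 0.0414). Within an array, 1434830_at minus 1455104_at was 1.56 to 1.73 in preSC and 0.29 to 0.72 in the transduced arrays.

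Mxd3, the MXD gene expressed in dividing cells, was bright and did not pass the test on any of 3 probe sets. On 1438847_at it was at 9.40, 9.31 and 8.76 in preSC, 9.32 and 8.80 with L-Myc, 8.38 and 8.68 with C-Myc, and 8.61 and 8.49 on the N-Myc-labelled arrays. The C-Myc and N-Myc-labelled arrays lay below all preSC arrays, at -0.63 (SE 0.24) and -0.60 (SE 0.24) with adjusted p of 0.105 and 0.106, and L-Myc overlapped preSC. Without preSC 3 both passed (-0.83 and -0.80, adjusted p 0.0338 and 0.0343). On 1448878_at and 1422970_at all differences from preSC lay between -0.21 and 0.26.

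Mxd4, a repressor linked to leaving the cell cycle, fell on the N-Myc-labelled arrays. On 1434378_a_at it was at 9.57, 9.91 and 10.30 in preSC, 8.44 and 9.22 with L-Myc, 8.22 and 9.39 with C-Myc, and 8.41 and 8.51 on the N-Myc-labelled arrays. All transduced arrays lay below all preSC arrays, with L-Myc 2 and C-Myc 2 nearest to them. The fall was 2.76-fold on the N-Myc-labelled arrays (-1.47, SE 0.38, adjusted p = 0.0287). The L-Myc and C-Myc differences were -1.09 and -1.12 (SE 0.38 each, adjusted p 0.102 and 0.0795), and without C-Myc 2 both passed (-1.09 and -1.71, adjusted p 0.0370 and 0.0159), the second resting on C-Myc 1 alone. The N-Myc-labelled call was lost without preSC 2, preSC 3, N-Myc 1 or N-Myc 2 (adjusted p 0.0709 to 0.153) and with close pairs averaged (0.230). The other 3 Mxd4 probe sets differed from preSC by -0.59 to -0.03 over the 3 comparisons, all below preSC and none past the test. Within an array, 1434378_a_at minus 1434379_at was 1.35 to 1.73 in preSC and 0.32 to 0.75 in the transduced arrays.

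Mnt, the MAX-bound repressor found in most proliferating and resting cells, did not pass the test. On 1418192_at it was at 9.14, 9.49 and 9.40 in preSC, 8.82 and 8.77 with L-Myc, 8.78 and 8.92 with C-Myc, and 9.29 and 8.84 on the N-Myc-labelled arrays. The L-Myc and C-Myc arrays lay below preSC, with differences of -0.54 and -0.49 (SE 0.17 each, adjusted p 0.0714 and 0.0817), and N-Myc 1 fell within the preSC range. The dim 1418193_at stayed between 5.25 and 5.84 on all arrays.

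Mga, whose large protein carries both a T-box and a MAX-binding domain, fell on 1 of 5 probe sets. On 1422646_at it was at 8.05, 7.74 and 7.45 in preSC, 6.12 and 6.07 with L-Myc, 6.01 and 5.89 with C-Myc, and 6.25 and 5.94 on the N-Myc-labelled arrays. The 6 transduced arrays lay within 0.36 of one another and more than 1 below the lowest preSC array. The fall was 3.14-fold with L-Myc (-1.65, SE 0.19, adjusted p = 0.0017), 3.48-fold with C-Myc (-1.80, SE 0.19, adjusted p = 0.0010) and 3.14-fold on the N-Myc-labelled arrays (-1.65, SE 0.19, adjusted p = 0.0013). With close pairs averaged, the N-Myc-labelled adjusted p was 0.0523.

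The 2 bright Mga probe sets showed no such fall. On 1431232_a_at Mga was at 9.33, 9.53 and 9.37 in preSC and at 9.29 to 9.82 on the transduced arrays. On 1434746_at it was at 9.05, 9.39 and 9.46 in preSC and at 9.34 to 9.67 on the transduced arrays. Their 6 differences from preSC were all above 0, from 0.07 to 0.36, and none passed the test. On the dim 1442356_at they were 0.29, 0.42 and 0.47 (adjusted p 0.272, 0.104 and 0.0661). The dimmest, 1433012_at, was under the 40th percentile on every array. Within an array, 1422646_at minus 1431232_a_at was -1.92 to -1.28 in preSC and -3.88 to -3.40 in the transduced arrays.

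**Figure D2:**
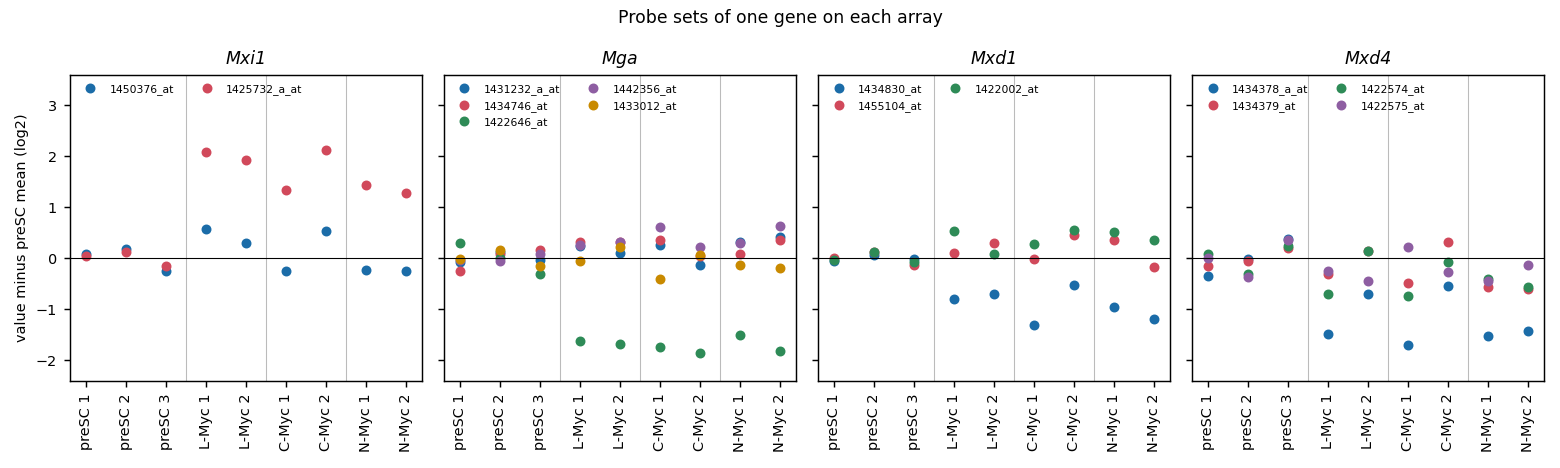
Each probe set of Mxi1, Mga, Mxd1 and Mxd4 on each of the 9 arrays, as its value minus its own preSC mean (log2, vertical axis); colours are probe sets. In Mxi1, Mga and Mxd1, 1 probe set leaves the others on all 6 transduced arrays: up to 2.13 above its preSC mean in Mxi1, and down in Mga and Mxd1. In Mxd4, 1434378_a_at lies lowest on these arrays, but near another probe set on L-Myc 2 and C-Myc 2.

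Such disagreement was common on these arrays. Over the 7 member genes with 2 or more probe sets above the 40th percentile of mean level, 5 of 15 pairs of probe sets had within-array differences that separated preSC from the transduced arrays by over 2-fold without overlap (33.3%), beside 3950 of 17744 pairs over all such genes (22.3%). By gene this was 3 of 7 (42.9%), beside 1950 of 5962 (32.7%). The 3 genes were Mxi1, Mga and Mxd1. When each gene was read by its brightest probe set alone, 0, 1 and 3 of the 10 genes changed in the L-Myc, C-Myc and N-Myc-labelled comparisons, where 11.9%, 18.2% and 22.4% of all genes changed. The changes left were Mxd1 with C-Myc, and Mxd1, Mxd4 and Mlxipl on the N-Myc-labelled arrays. Neither Mxi1 nor Mga passed the test on its brightest probe set.

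In the MLX branch, Mlx itself was higher in mean in every transduced group without passing the test. MLX is the obligate partner of MondoA and ChREBP. On 1425930_a_at it was at 8.20, 8.04 and 8.75 in preSC, 8.41 and 9.44 with L-Myc, 9.05 and 9.49 with C-Myc, and 9.01 and 9.15 on the N-Myc-labelled arrays. The C-Myc and N-Myc-labelled arrays lay above all preSC arrays, and L-Myc 1 lay within them. The differences were 0.59, 0.94 and 0.75 (SE 0.33 each, adjusted p 0.289, 0.0867 and 0.141). The C-Myc difference passed without either L-Myc array (adjusted p = 0.0348). The second probe set, 1418437_a_at, differed by 0.13, 0.49 and 0.33 (adjusted p 0.781, 0.207 and 0.367), and its arrays overlapped preSC except for C-Myc 2 and L-Myc 2.

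Mlxip encodes MondoA, the glucose sensor of most tissues. It was at 8.01, 7.99 and 8.34 in preSC, 7.42 and 7.61 with L-Myc, 8.07 and 7.46 with C-Myc, and 8.0 and 7.53 on the N-Myc-labelled arrays. The L-Myc arrays lay below preSC, and the others overlapped it. The differences were -0.60, -0.35 and -0.35 (SE 0.23 each, adjusted p 0.127, 0.332 and 0.312).

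Mlxipl encodes ChREBP, best known for glucose-driven fat synthesis in liver. It had the widest range of the members, 3.66 log2 units over the 9 arrays. It was at 7.75, 7.70 and 8.96 in preSC, 7.15 and 8.21 with L-Myc, 5.30 and 7.78 with C-Myc, and 5.48 and 5.47 on the N-Myc-labelled arrays. C-Myc 1 and the N-Myc-labelled arrays were low, C-Myc 2 stood with preSC, and preSC 3 was the highest. The fall was 6.32-fold on the N-Myc-labelled arrays (-2.66, SE 0.71, adjusted p = 0.0324). That call was lost when any 1 of the preSC or N-Myc-labelled arrays was left out (adjusted p 0.0633 to 0.152), and with close pairs averaged (0.245). The C-Myc difference was -1.60 (SE 0.71, adjusted p = 0.167), or -2.84 for C-Myc 1 alone (adjusted p = 0.0134), and the L-Myc difference was -0.45 (SE 0.71, adjusted p = 0.742).

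**Figure D3:**
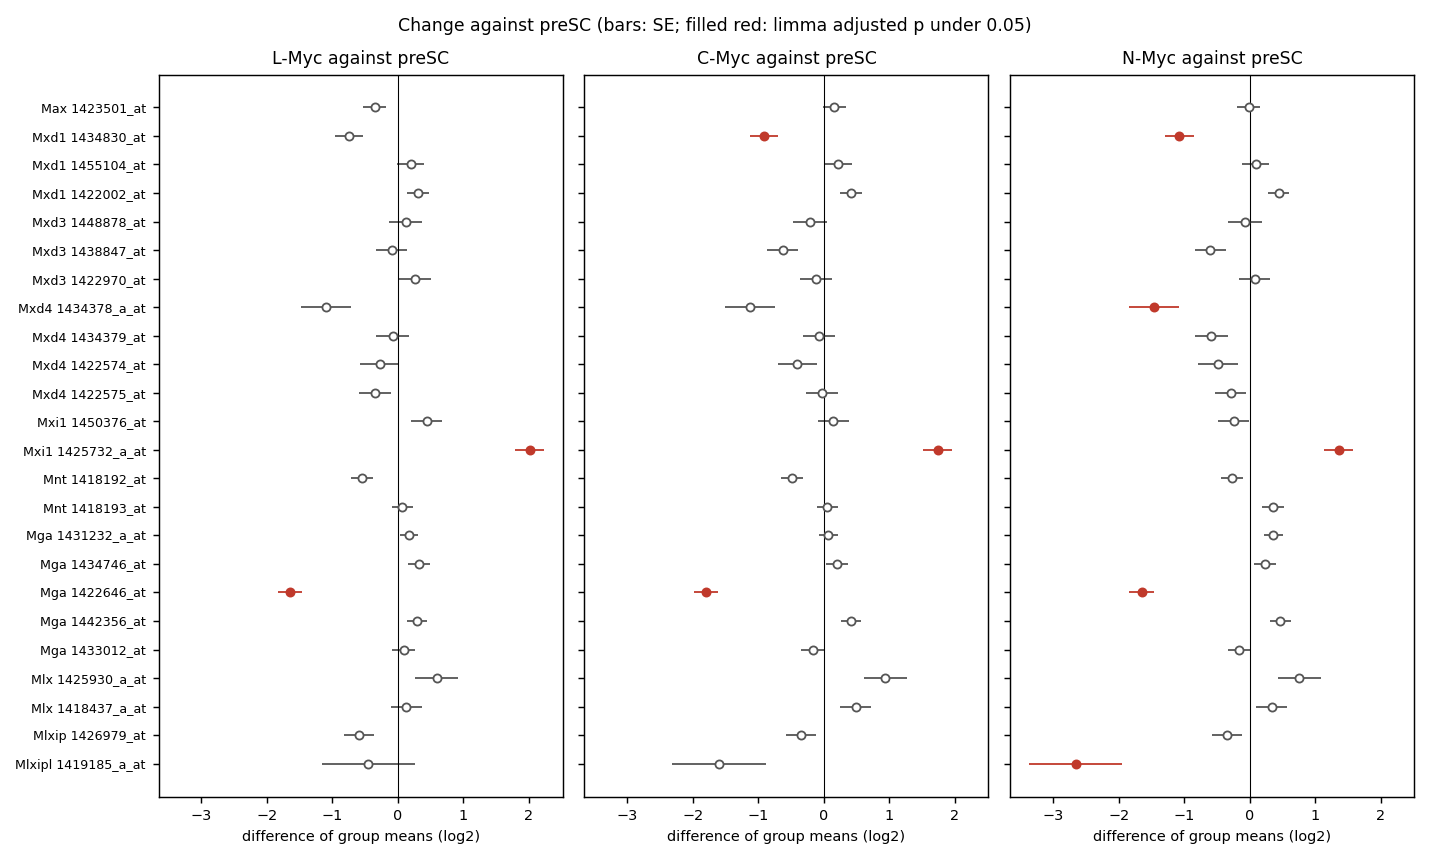
Difference of each transduced group from preSC for all 24 probe sets (log2, horizontal axis), with bars for the SE and filled red points for an adjusted p under 0.05. There are 2, 3 and 5 red points for L-Myc, C-Myc and N-Myc-labelled arrays; the widest bars belong to Mlxipl, with an SE of 0.71.

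The 3 transduced groups were also compared with one another. For no member did the difference pass the test in L-Myc against C-Myc, L-Myc against N-Myc-labelled or C-Myc against N-Myc-labelled arrays, where 0%, 0% and 0.00222% of all probe sets passed. At an unadjusted limma p under 0.05 there were 1, 3 and 0 member probe sets. The 1 was Max, lower in mean with L-Myc than with C-Myc by 0.52 (adjusted p = 0.938). The 3 were Mxi1 on both probe sets, higher in mean with L-Myc by 0.66 and 0.68 (unadjusted p 0.0274 and 0.0306, adjusted 0.265 and 0.274), and Mlxipl, higher in mean with L-Myc by 2.21 (unadjusted p 0.0233, adjusted 0.252). Without C-Myc 1, an array outside this contrast, Mxi1 on 1425732_a_at and Mlxipl passed (adjusted p 0.0479 and 0.0492). The same held without C-Myc 2. The falls of Mlxipl and Mxd4 on the N-Myc-labelled arrays were thus not shown to differ from the L-Myc values.

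The genes that the network acts on, and its cofactors, were read on the brightest probe set of each gene. All lists were chosen with earlier results on these data already known. An excess of a list over all genes is therefore a description and no test. The promoters of the listed genes were not searched for the E-box. Of 18 E-box genes of MYC and MXD, 7 rose and 2 fell with L-Myc, where 4.83% of all genes rose and 7.07% fell. With C-Myc 12 rose and 2 fell (all genes 7.76% and 10.4%), and on the N-Myc-labelled arrays 13 rose and 1 fell (10.2% and 12.2%). The list medians were 0.66, 1.09 and 1.25, beside -0.03, -0.01 and 0.02 over all genes. Shmt1, a one-carbon enzyme, rose by 1.47, 2.58 and 2.91. Bop1, a ribosome assembly factor, rose by 1.47 with C-Myc and 1.83 on the N-Myc-labelled arrays. Shmt2, the mitochondrial relative of Shmt1, rose by 1.17 and 1.52 there, and Pa2g4, a growth-regulated ribosome-binding protein, by 1.00 and 1.34. Other probe sets of these genes above the 40th percentile gave other sizes. Over the 3 comparisons they differed by -0.03 to 4.25 for Shmt1 (3 probe sets), 0.21 to 2.26 for Shmt2 (3), -0.23 to 0.26 for Bop1 (1) and -0.34 to 2.04 for Pa2g4 (4). The direction differed as well: Pa2g4 had a probe set below preSC in each of the 3 comparisons, and Bop1 and Shmt1 had one below it with L-Myc.

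Cofactors of MYC and of the MXD proteins included genes that rose and genes that fell, as did all genes. Of 15 MYC coactivators, 3 rose and 3 fell with L-Myc, 4 and 3 with C-Myc, and 4 and 2 on the N-Myc-labelled arrays, with medians of -0.08, -0.06 and 0.12. That is 40%, 46.7% and 40% of the list, beside 11.9%, 18.2% and 22.4% of all genes. Ruvbl2, an ATPase of chromatin remodelling complexes, rose by 1.16, 1.56 and 1.67, and its partner Ruvbl1 by 1.07 with C-Myc and 1.52 on the N-Myc-labelled arrays. Tfap4 rose by 0.92, 1.12 and 1.19. It is a bHLH zipper factor of the E-box and not a coactivator, yet the counts and shares of this list include it. It is counted again among the other E-box factors. Crebbp, a histone acetyltransferase, fell by 1.45, 1.51 and 1.32, while its 3 other probe sets differed by -0.79 to 0.70. Of 14 measured SIN3 and NCOR corepressor genes, 1 rose with L-Myc, 2 fell with C-Myc, and 2 rose and 2 fell on the N-Myc-labelled arrays. These shares of 7.14%, 14.3% and 28.6% lie near those of all genes, so the counts are no result about the list. Arid4a, a SIN3 subunit, fell by 0.82 and 0.97 in the last 2 groups, and its other probe set differed by -0.94 and -1.12. Brms1, another SIN3 subunit, rose by 0.89 with L-Myc, where its other probe set differed by 0.28. Ing2, which reads histone methylation for SIN3, rose by 0.76 and the scaffold Sin3b by 0.54 on the N-Myc-labelled arrays. There the 4 other Sin3b probe sets differed by -0.03 to 0.73. Of 11 genes for MYC turnover and for Miz1, Usp28, a deubiquitinase, fell by 0.60 on the N-Myc-labelled arrays and no other gene passed (0%, 0% and 9.09% of the list).

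Genes of MGA's complex were read next. Of 14 PRC1.6 genes, 2 rose and 1 fell with L-Myc, 4 and 1 with C-Myc, and 3 and 2 on the N-Myc-labelled arrays, with medians of 0.19, 0.31 and 0.24. That is 21.4%, 35.7% and 35.7% of the list, beside 11.9%, 18.2% and 22.4% of all genes. Ehmt2, a histone H3 lysine methyltransferase, rose by 0.86 with C-Myc and 1.33 on the N-Myc-labelled arrays. Its other probe set differed by 2.64, 2.85 and 3.11 over the 3 comparisons. Rnf2, the ubiquitin ligase of Polycomb complexes, rose by 0.77 with L-Myc and 0.84 with C-Myc. Its 2 other probe sets differed by 1.33 to 1.70 over the 3 comparisons. Kdm5c, a histone demethylase, fell by 0.75, 0.97 and 1.19, but its 7 other probe sets differed by -1.08 to 1.21. Tfdp2, a partner of E2F proteins, fell by 1.74 on the N-Myc-labelled arrays, where its 3 other probe sets differed by -1.01 to -0.22. None of the 11 germline genes listed as repressed by PRC1.6 passed the test in any of the 3 comparisons (background 11.9%, 18.2% and 22.4%). Of these, 9 were at or under the 40th percentile on every array, among them the meiotic cohesin gene Stag3 (3.48 to 4.30) and the germline transcription factor gene Taf7l (3.52 to 4.30). At such levels a fall could not be seen. Tdrkh, also on the list, was at 8.39 to 9.12 on all 9 arrays, so not every listed gene was silent in these cells.

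Of 15 glucose-response genes tied to MLX, none passed with L-Myc, and 3 rose and none fell in each of the C-Myc and N-Myc-labelled comparisons. The shares of 0%, 20% and 20% stand beside 11.9%, 18.2% and 22.4% of all genes, so the C-Myc and N-Myc-labelled counts are near the background and no result about the list. Medians were -0.08, 0.22 and 0.40. Pfkfb3, a glycolysis regulator, rose by 1.52 and 1.24, and Acly, which makes acetyl-CoA for fat synthesis, by 0.73 and 0.85. Pklr, the liver pyruvate kinase, rose by 0.49 with C-Myc, and Gpd1, a glycerol phosphate dehydrogenase, by 0.63 on the N-Myc-labelled arrays. Other probe sets of Pklr and Gpd1 moved less, by -0.08 and 0.12 for Pklr and by 0.17 for Gpd1 in the same comparisons. The 2 other Acly probe sets differed by 0.61 and 1.78 with C-Myc and by 0.57 to 1.89 on the N-Myc-labelled arrays. Txnip, the classical MondoA and ChREBP target, differed by -0.51, -0.61 and -0.54 on its brightest probe set (adjusted p 0.373, 0.259 and 0.293) and by 1.77, 1.78 and 1.96 on its dimmer one. It is named after its values were seen, and its probe sets differ in direction. Of 9 other E-box factors with the same domain, 22.2%, 11.1% and 44.4% changed, and Tfap4 is given above. Mitf, the melanocyte regulator, fell by 1.69 with L-Myc. Srebf1, the lipogenic factor, fell by 1.70 and Srebf2, the cholesterol factor, rose by 0.95 on the N-Myc-labelled arrays.

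**Figure D4:**
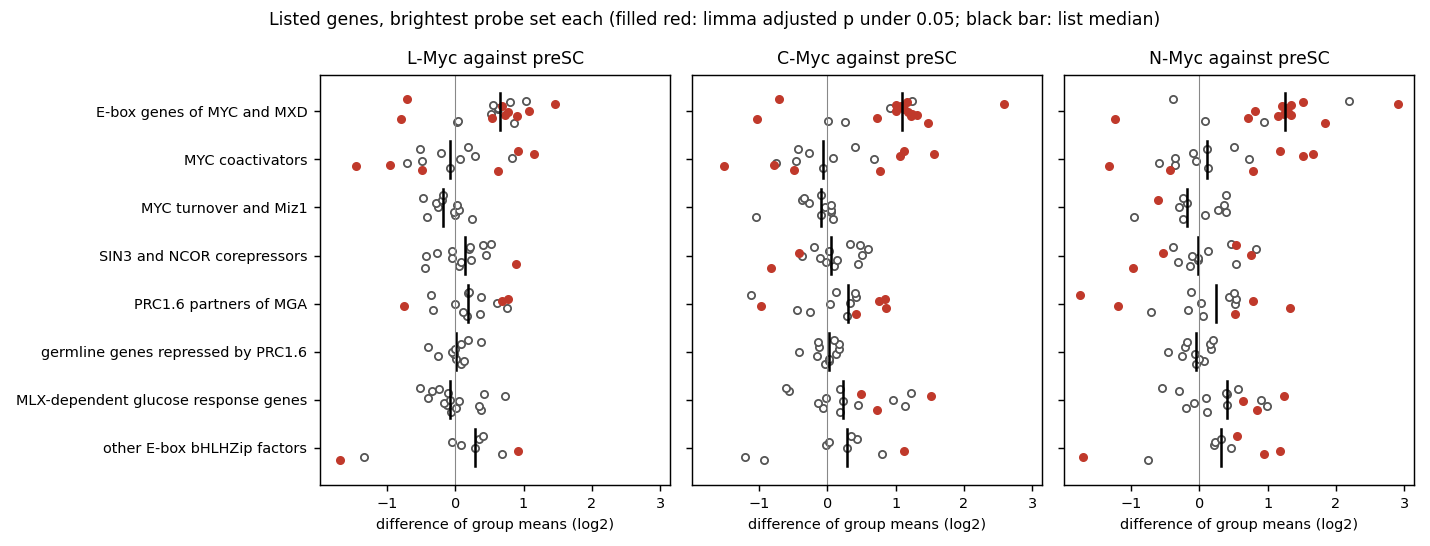
Difference from preSC (log2, horizontal axis) of every listed gene on its brightest probe set, by list and comparison; filled red points passed the test and black bars are list medians. The E-box genes stand to the right, with medians of 0.66, 1.09 and 1.25. The germline genes, 9 of 11 of them at or under the 40th percentile on every array, have no red point. The lists were chosen with earlier results on these data already known.

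For the 3 members whose brightest probe set had the widest range of group means, the genes with the most similar pattern were found by the root mean square difference of values, each taken relative to that gene's preSC mean, over the 9 arrays. For Mlxipl they were Rgl3, Septin4 and C1qtnf4 (0.12, 0.15 and 0.18 log2). Rgl3 differed from preSC by -0.44, -1.45 and -2.72, beside -0.45, -1.60 and -2.66 for Mlxipl. For Mxd4 they were Brinp1, Spry2 and Npnt (0.11, 0.15 and 0.16), and for Mxd1 they were Bsdc1, Mblac1 and Lars2 (0.11, 0.12 and 0.12). These lists follow the spread between arrays as well as between groups.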

How the data were processed

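The authors deposited log2 intensities for each probe set, summarised by RMA (affy, R 3.0.1) per the submitters' processing notes (affy version and genome build not given in the sources used here). Of 45101 probe sets, 64 Affymetrix controls were left out; 34945 gave 1 gene symbol, 932 gave several and were left unnamed, and 9160 gave none. The remaining 45037 probe sets entered 1 limma 3.58.1 fit in R 4.3.3 (lmFit, then eBayes) with 4 groups and 9 arrays, 5 residual degrees of freedom, two-sided, with Benjamini-Hochberg adjustment and a threshold of 0.05 and no filter on level. Listed genes were read on the probe set with the highest mean. Outside the cell type markers and Txnip, the genes named from a list are the 4 or fewer that changed most among those passing, or examples where none passed. RMA gives all arrays the same overall distribution, so a shift shared by all transcripts would not show. The fit was tested on simulated data. Promoter windows came from RefSeq, assembly GRCm38.p6. The 10 genes and the gene lists used here were chosen with earlier results on these data already known. Alternatives are in the closing section.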

Additional observations from a re-analysis of the deposited data

How the results depend on the processing

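Replicate numbers came from the array titles, but their correlations across groups ran from -0.57 to 0.54 and not every array correlated best with its own number, so the replicate block is a processing alternative and not a pairing. With a replicate block the counts of called member probe sets against preSC were 2, 5 and 6 for L-Myc, C-Myc and N-Myc-labelled arrays, beside 2, 3 and 5 without it. Only preSC has a replicate 3, so the block takes up that array. The differences from preSC then equal those of the fit without preSC 3, and these settings are not separate checks. The dim-probe filter, centring on bright probe sets, quantile normalization and an intensity trend left each of these counts within 1.5 times of its own. Array weights gave 10 and a fit of only the 2 groups compared gave 9 for N-Myc-labelled arrays. Averaging preSC 1 with 2 and N-Myc 1 with 2 gave 0 there. With 1 probe set per gene the counts were 0, 1 and 3 of 10 genes. Leaving out 1 array at a time gave 2 to 4 calls for L-Myc, 2 to 6 for C-Myc, 1 to 7 for N-Myc-labelled arrays, 0 to 1 between L-Myc and C-Myc, 0 to 2 between L-Myc and N-Myc-labelled arrays, and 0 in each between C-Myc and N-Myc-labelled arrays. An alternative chosen after seeing the data left out preSC 3, L-Myc 2 and C-Myc 2 together, so that the spread came from 2 close pairs with 2 residual degrees of freedom. It gave 7, 12 and 12 calls against preSC, where 23.9%, 34.4% and 39.7% of all probe sets passed, and 6 calls each for L-Myc against C-Myc and against N-Myc-labelled arrays, where 15.5% and 18% passed. No called value changed sign under any alternative run. The rise of Mxi1 on 1425732_a_at and the fall of Mga on 1422646_at with L-Myc and C-Myc passed in all 9 settings that keep these probe sets and in all 9 fits without 1 array. The cause of the changes between settings was not tested. The number of arrays, not a depth, limits the precision.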
